A study of Mus musculus with 6 samples.

Results

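The 6 actin genes of the mouse, Acta1, Acta2, Actb, Actc1, Actg1 and Actg2, were followed in primary mouse fibroblasts, either control cells or cells given CXCL3, a chemokine. They were taken by name from a table of 51912 genes, whatever their level, and all 6 were found in it. Of the 6, 5 passed a filter on low values (1 TPM or more in 3 or more libraries, where TPM is a transcript's level relative to all transcripts of the library, corrected for length), as did 13139 of all genes. Actc1 was listed at 0 in every library and was not tested. The study has 6 libraries of total RNA, 3 from control cells and 3 from cells given CXCL3 for 48 h, all labelled with an age of 6 weeks. The sources used here give no strain, organ, dose, vehicle or genotype. The labels do not say whether replicates were separate cultures or animals, so the spread between libraries, and every p-value, may be technical only.

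Actin is the protein of the thin filaments that give a cell its shape and, with myosin, its pull. Actb and Actg1 encode the beta and gamma cytoplasmic actins, which nearly all cells make for their cortex and stress fibers. The other 4 genes encode muscle actins. Acta2 (alpha smooth muscle actin) and Actg2 (gamma smooth muscle actin) belong to smooth muscle, Acta1 to skeletal muscle and Actc1 to heart. Acta2 is also switched on when a fibroblast becomes a contractile myofibroblast, which is why it is the common marker of that state. The series title places the experiment in work on CXCL3, myofibroblasts and the spread of pancreatic cancer.

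The isoforms are close relatives, and their sequence bears on how far their levels can be told apart. The coding sequences run to 1134 bases for Acta1, Acta2 and Actc1, 1131 for Actg2, and 1128 for Actb and Actg1. Between pairs of muscle actins 82.5% to 86.2% of aligned coding bases were identical, and between Actb and Actg1 88.7%. A muscle and a cytoplasmic actin shared 81.5% to 84.8%, a range that overlaps the first. The start of the coding sequence is shown for each gene. Each run holds the first 48 coding bases of the longest GENCODE M21 transcript, and capitals mark bases that differ from Acta2 or have no counterpart in it.
Acta2: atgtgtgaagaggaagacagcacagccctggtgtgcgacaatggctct
Actg2: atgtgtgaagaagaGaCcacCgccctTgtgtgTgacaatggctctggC
Actc1: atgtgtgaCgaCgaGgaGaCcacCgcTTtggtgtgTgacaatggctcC
Acta1: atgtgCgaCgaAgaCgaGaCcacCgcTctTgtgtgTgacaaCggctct
Actb: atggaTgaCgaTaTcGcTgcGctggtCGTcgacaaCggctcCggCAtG
Actg1: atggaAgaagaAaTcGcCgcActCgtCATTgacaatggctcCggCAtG
In this stretch 6 bases of Actg2 are in capitals, 10 of Actc1, 11 of Acta1, and 15 each of Actb and Actg1. Over the whole coding sequence the same count was 176 for Actg2, 198 for Actc1, 166 for Acta1, 189 for Actb and 204 for Actg1.

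Further along the coding sequence the muscle isoforms match for short runs only. The longest unbroken match between the coding sequences of Acta2 and Actg2 is 29 bases, at coding bases 637 to 665 of Acta2.
Acta2 and Actg2: gacatcaaggagaagctgtgctatgtagc
The longest match of any pair of coding sequences is 77 bases, between Acta1 and Actb. Every window of 100 bases along each transcript was therefore looked up in the transcripts of all other genes. None of the windows of Acta1, Acta2, Actc1 or Actg2 occurred elsewhere. In Actb 1.10% of the windows did, and in Actg1 51.1%. The windows of Actg1 were found in transcripts of 5 pseudogenes of the table, such as Actg-ps1 and Gm12715. No pseudogene of the 5 was above 0.83 TPM in any library. The sources used here do not state a read length. At 100 bases Actg1 had the most sequence in common with other genes, and the 4 muscle actins had none. As the longest coding match of any actin pair was 77 bases, windows of this length could not show one. With windows of 50 bases, 2.22% of those of Acta1 and 0.35% of those of Acta2 also occurred elsewhere. Of these Acta1 windows 28 were found in Actb. No window of 50 bases of Actc1 or Actg2 occurred elsewhere.

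**Figure D1:**
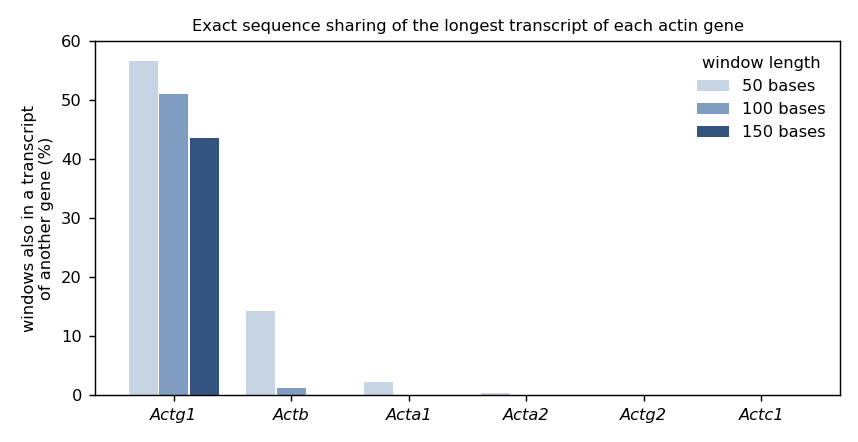
Percentage of sequence windows of the longest transcript of each actin gene (x axis) that occur exactly in a transcript of another gene, for windows of 50, 100 and 150 bases (bars). Actg1 stands at 56.7%, 51.1% and 43.5%, whereas Acta2 stands at 0.35% for 50 bases and 0 for longer windows.

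Libraries differed in ways the groups do not explain, and these touch all values that follow. Controls 2 and 3 stood apart from the other 4 libraries on the first principal component (36.6 and 26.6, against -19.2 to -9.39), which held 52.9% of the variance. In the same libraries long transcripts were relatively low, with a Spearman correlation across genes between a library's deviation and transcript length of -0.50 and -0.48, against 0.20 to 0.45 in the other 4. Results are therefore given also without these controls. The cultures carried fibroblast transcripts such as Col1a1 (567.0 to 973.3 TPM), but the proteoglycan gene Lum was at 0.06 to 0.50 TPM. They also carried macrophage transcripts, with Lyz2 at 13115 to 16166 TPM. Each value is of a whole culture, in which fewer cells of a type and less RNA per cell cannot be told apart.

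Actin transcripts made up 0.53% to 0.57% of all TPM in controls and 0.46% to 0.47% with CXCL3. The cytoplasmic isoforms supplied most of it in every library. Actg1 was the highest of the 6 in 5 libraries and Actb in 1, control 2. After these came Acta2, then Actg2, then Acta1, in the same order in all 6 libraries. The Actb and Actg1 levels overlapped across libraries and have no settled order, whereas the steps from Acta2 down to Actg2 and from Actg2 to Acta1 were wider than any spread between replicates.

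With all 6 libraries Acta2 was the only actin gene called lower, though Acta1, Actg2 and Actb also lay lower without overlap. It stood at 1056, 1039 and 1150 TPM in the control libraries 1, 2 and 3. The CXCL3 libraries 1, 2 and 3 held 658.9, 669.1 and 653.3 TPM. The groups did not overlap, and the lowest control lay well above the highest CXCL3 library. The mean went from 1082 ± 59.9 to 660.4 ± 8.02 TPM (SD, n = 3 each), which leaves 61.1% of the control level. On log2(TPM + 1) the fold change was -0.71 ± 0.06 (SE, 95% interval -0.86 to -0.56; limma, adjusted p = 0.0293 over all genes). Of the 5 actin genes tested 1 was called lower and 0 higher, where 0.129% of all genes were called lower and 0.0304% higher. Leaving out control 3 ended the call (limma, adjusted p = 0.10), and so did leaving out CXCL3 library 1 (0.227), 2 (0.175) or 3 (0.184). It was also lost with no filter (0.107), with a variance prior without trend (0.115) and with median-of-ratios scaling (0.112). Against control 1 alone, which lay beside the CXCL3 libraries in the principal component, the fold change was -0.68. No test is given for it, because a lone control would be assumed to vary as little as the CXCL3 libraries, whose median SD over all genes was 0.086 on the log2 scale against 0.20 in controls.

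The other muscle isoforms lay lower with CXCL3 too, at far lower levels and without passing the test. Actg2, the smooth muscle isoform best known from gut and bladder wall, was at 17.3, 18.5 and 19.2 TPM in controls 1, 2 and 3. With CXCL3 it was at 14.4, 11.2 and 11.3 TPM. The groups did not overlap, and CXCL3 library 1 was the nearest to the controls. Its fold change was -0.55 ± 0.13 (95% interval -0.84 to -0.25; limma, adjusted p = 0.217). Acta1, the skeletal muscle isoform, was at 5.97, 6.36 and 7.05 TPM in the controls. Its CXCL3 values were 2.93, 3.8 and 2.78 TPM. These groups did not overlap either, and the mean with CXCL3 was 49.1% of the control mean. The fold change of Acta1 was -0.84 ± 0.15 (95% interval -1.20 to -0.49; limma, adjusted p = 0.132), which the added 1 TPM shrinks, and with a pseudocount of 0.1 it was -1.01. Actg2 and Acta1 passed without control 1 (limma, adjusted p = 0.0156 and 0.00768), where 4254 of all genes were called, and Acta1 with library weights (0.0360), where 1446 were.

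**Figure D2:**
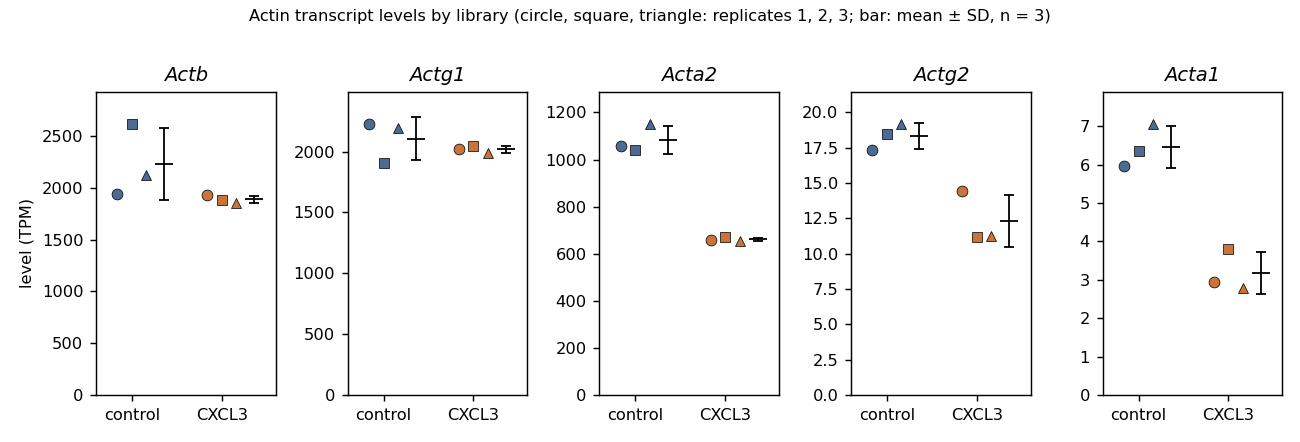
Level in TPM (y axis, from 0, on a scale of its own for each gene) of 5 actin genes in 3 control and 3 CXCL3 libraries; points are libraries and bars the mean ± SD (n = 3). The 3 muscle isoforms lie below all controls in all CXCL3 libraries, and Actb in control 2 (2618 TPM) is the highest actin value of all.

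The cytoplasmic isoforms differed less between the groups. Actb, the beta cytoplasmic actin often used as a reference gene, was at 1940, 2618 and 2131 TPM in the controls, in the order 1, 2 and 3. Its CXCL3 values were 1930, 1882 and 1859 TPM. The groups touched without overlapping, since control 1 stood only just above CXCL3 library 1. The fold change was -0.23 ± 0.11 (95% interval -0.48 to 0.03; limma, adjusted p = 0.455). Without control 1 it was -0.32 and passed (limma, adjusted p = 0.0336), without control 2 it was -0.11 (0.692), and without controls 2 and 3 it was -0.04. So the size of the Actb difference follows the choice of controls.

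Actg1, the gamma cytoplasmic actin, was at 2225, 1903 and 2191 TPM in the controls, in the same order. Its CXCL3 values were 2021, 2048 and 1987 TPM. The groups overlapped: control 2 lay below every CXCL3 library and the other controls above every one. The fold change was -0.06 ± 0.08 (95% interval -0.24 to 0.12; limma, adjusted p = 0.708). Control 2 thus held the highest Actb and the lowest Actg1 value of all libraries, with an Actb to Actg1 ratio of 1.38 where the other 5 libraries lay between 0.87 and 0.97. The sum of both was closer between controls, at 4165, 4521 and 4322 TPM, against 3951, 3929 and 3846 TPM with CXCL3. Whether shared reads play a part in the split of control 2 was not tested.

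Set side by side, 4 of the 5 actin genes tested lay lower in every CXCL3 library than in any control, where 9.31% of all genes did. All 5 had a negative fold change, against 37.7% of all genes. The median over the 5 was the Actg2 value, and the median of all genes was 0.07. When the dependence on transcript length and GC was taken out of each library, the values were -0.81 for Acta1, -0.68 for Acta2, -0.49 for Actg2, -0.19 for Actb and -0.03 for Actg1, with Acta2 passing (limma, adjusted p = 0.0159). In that setting the order of the 5 fold changes was the one found with all values as deposited.

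**Figure D3:**
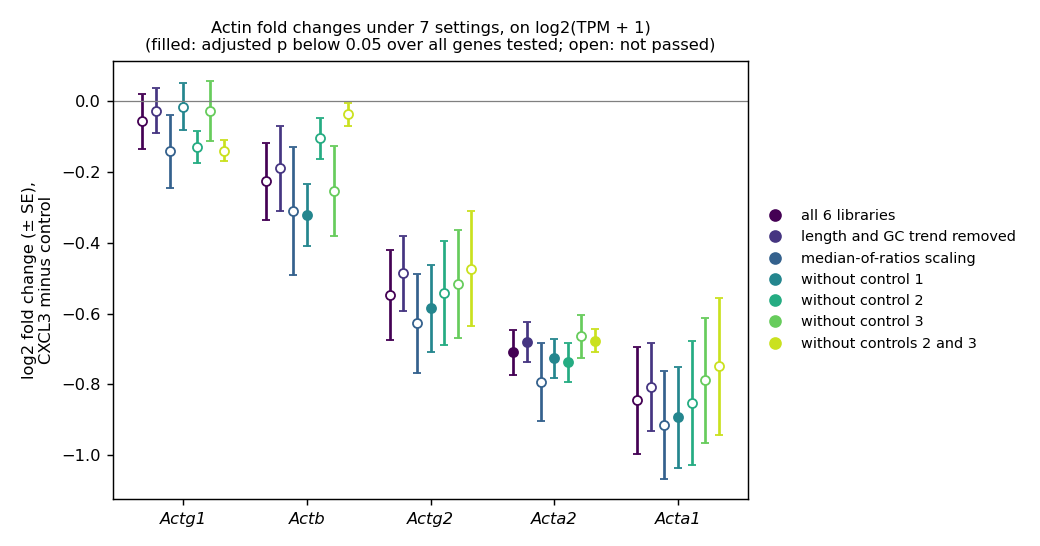
Log2 fold change ± SE (y axis, CXCL3 minus control, on log2(TPM + 1)) of 5 actin genes (x axis) with all 6 libraries and under 6 other settings (colors); filled points have an adjusted p below 0.05 over all genes tested. The setting without controls 2 and 3 rests on 1 control library, so its errors and filled point assume too small a spread. Acta2 stays between -0.79 and -0.66 in all 7 settings shown, whereas Actb ranges from -0.32 to -0.04.

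Shares within the actin pool do not move with library-wide scaling, and so give a second view of the same libraries. The 4 muscle genes together supplied 20.6%, 19.0% and 21.4% of the summed actin TPM in controls 1, 2 and 3. With CXCL3 they supplied 14.6%, 14.8% and 14.8%. The groups did not overlap, and the CXCL3 libraries lay within a narrow band. The mean share was 20.3% ± 1.19 in controls and 14.7% ± 0.11 with CXCL3 (SD, n = 3 each), a difference of -5.60 percentage points (exact permutation test, two-sided, p = 0.1). That is the smallest p that 3 against 3 libraries allow, so no share could pass 0.05, and adjusted over the 8 single measures tested this way it was 0.114. Against control 1 alone the difference was -5.83 points, and after removal of the length and GC trend -5.64 points.

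Almost all of this came from Acta2, which held 97.4% to 97.9% of the muscle actin TPM in every library. Its share of all actin was 20.1%, 18.6% and 20.9% in controls and 14.2%, 14.5% and 14.5% with CXCL3 (difference -5.48 points, exact permutation p = 0.1). Actg2 went from 0.34% ± 0.01 to 0.27% ± 0.04 and Acta1 from 0.12% ± 0.008 to 0.069% ± 0.012 (SD, n = 3 each). The makeup of the muscle pool itself overlapped between the groups: the Acta2 level was 163.1 to 176.8 times that of Acta1 in controls and 176.1 to 235.0 times with CXCL3. The ratio of Acta2 to Actg2 was 56.3 to 60.9 in controls and 45.7 to 59.9 with CXCL3.

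Among the cytoplasmic isoforms the share of Actg1 lay higher in every CXCL3 library than in any control, and that of Actb overlapped between the groups. The shares of a library make up a fixed whole, so a lower Acta2 share goes with higher shares elsewhere. In TPM Actg1 did not lie higher with CXCL3 (log2 fold change -0.06, overlapping groups). Actg1 held 42.4%, 34.1% and 39.9% of the pool in controls and 43.7%, 44.4% and 44.0% with CXCL3. The difference of 5.24 points (exact permutation p = 0.1) rests largely on control 2: without that library it was 2.89 points, and without controls 2 and 3 it was 1.6 points. Actb held 37.0%, 46.9% and 38.8% in controls and 41.7%, 40.8% and 41.2% with CXCL3. Here the groups overlapped, and the difference of 0.35 points was far smaller than the spread between controls (exact permutation p = 1.0). It was -1.59 points without control 1, 3.35 points without control 2 and 4.23 points without controls 2 and 3.

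**Figure D4:**
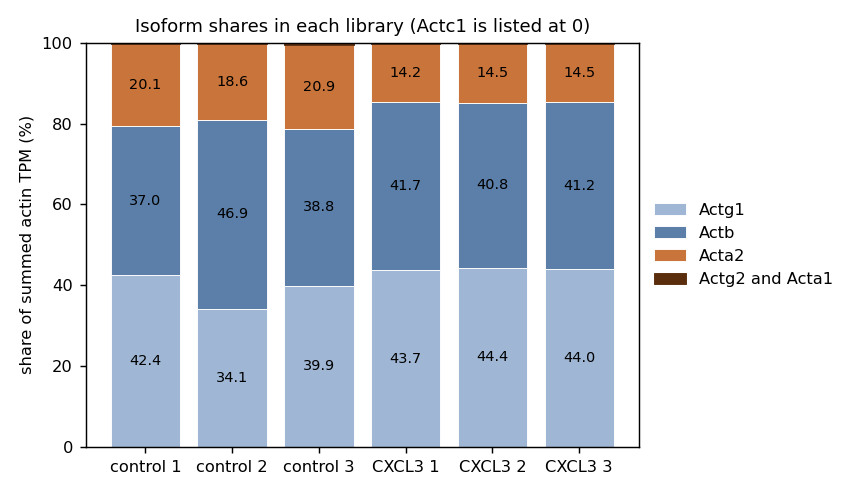
Share in percent (y axis) of each isoform in the summed TPM of the 6 actin genes in each library (x axis); numbers in the bars are the shares of Actg1, Actb and Acta2, and Actg2 with Acta1 form the thin strip at the top. Acta2 holds 18.6% to 20.9% in controls and 14.2% to 14.5% with CXCL3.

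The summed actin level lay lower in every CXCL3 library. It was 5244, 5585 and 5499 TPM in the controls, and the CXCL3 libraries held 4627, 4613 and 4513 TPM. The difference in means was -857.7 TPM (exact permutation p = 0.1), of which the muscle genes made up -430.5 TPM and the cytoplasmic genes -427.2 TPM. It was -658.9 TPM against control 1 alone and -1181 TPM with median-of-ratios scaling. TPM is a share of all transcripts, so this says nothing of the actin RNA per cell. With Actb as the reference, as in a PCR assay, the log2 ratio of Acta2 to Actb was -0.88, -1.33 and -0.89 in controls 1, 2 and 3 and -1.55, -1.49 and -1.51 with CXCL3. Control 2, with the highest Actb and the lowest Acta2 of the controls, lay nearest to the CXCL3 libraries on this scale. The ratio differed by -0.48 (exact permutation p = 0.1), and the plain ratio of Acta2 to Actg1 went from 0.52 ± 0.04 to 0.33 ± 0.001 (SD, n = 3 each).

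Markers of other cells were read beside these values, since muscle actins are made by several cell types. Of the 10 skeletal muscle markers, Myod1 and Pax7 were at 0 in every library and none exceeded 3.08 TPM, with summed levels of 2.37 to 5.02 TPM in controls and 2.95 to 4.81 TPM with CXCL3. The 7 cardiac markers, none of which passed the filter, summed to 1.94 to 2.90 TPM in controls and 0.89 to 1.77 TPM with CXCL3, without overlap. Among the 7 smooth muscle markers the defining myosin gene Myh11 was at 0.47 to 1.00 TPM, and the sums were 131.2 to 173.5 TPM in controls and 122.0 to 130.1 TPM with CXCL3, just without overlap. Most of that sum was Cnn1 (calponin), which myofibroblasts also make. Cnn1 was at 126.5, 94.4 and 103.2 TPM in controls against 76.2, 85.8 and 88.6 TPM with CXCL3, so it lay lower without overlap, as Acta2 did (-0.36; limma, adjusted p = 0.349). Of the 4 smooth muscle markers tested 3 had a negative fold change and none was called. Des (-0.10) also lay lower without overlap, whereas Lmod1 (-0.06) overlapped between the groups. Smtn went the other way, with a fold change of 0.29 and overlapping groups. Of the 5 pericyte markers 1 was tested, Notch3, with a fold change of 0.72 and overlapping groups (limma, adjusted p = 0.638). It was at 1.59, 0.68 and 3.42 TPM in controls and at 14.7, 1.4 and 1.27 TPM with CXCL3. The pericyte marker Rgs5 was at most 0.07 TPM.

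The summed levels of the macrophage and fibroblast lists also lay lower with CXCL3 without overlap. Of 9 macrophage markers 1, C1qa, was called lower (limma, adjusted p = 0.0493), where 0.129% of all genes were. Of the 9, 5 had a negative fold change, where 37.7% of all genes had one, and the list median was -0.05. Mrc1 lay higher in every CXCL3 library (0.53; limma, adjusted p = 0.248), and Adgre1, Csf1r and Ptprc had positive fold changes with overlapping groups. Lyz2 made up most of the macrophage sums, which were 14912 to 17885 TPM in controls and 14552 to 14648 TPM with CXCL3. Of 8 fibroblast markers 7 were tested, 1 of them, Col3a1, was called lower (limma, adjusted p = 0.0293), and 5 had a negative fold change, against the same shares of all genes. Their sums were 1734 to 2525 TPM in controls and 1554 to 1638 TPM with CXCL3. The part of a shift between cell types in the actin results was not tested.

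Actin genes are known targets of serum response factor (SRF), which binds the CArG box, a run of A and T framed by CC and GG. Its coactivators Mrtfa and Mrtfb are held back by free actin monomer, so that filament growth feeds back on actin transcription. RefSeq promoters (GRCm38.p6) were at hand for 4 of the 6 genes, and the 250 bases before the start site were searched for the box on both strands. An exact box was found once each in Acta1, Actc1 and Actg1 and not in Acta2, against 1.47% of all 32851 promoters. Allowing 1 base of the core to be C or G gave 2 matches in Acta2, 3 in Acta1, 4 in Actc1 and 1 in Actg1, against 8.59% of all promoters with at least 1 match. The letters TATAAA, in either direction, were found in Acta1, against 12.4% of all promoters.

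The matches of Acta2, which was called lower, are shown beside the exact boxes of Acta1 and Actg1. Each has 10 bases on each side, on the minus strand, with the box in capitals.
Acta2, chr19:34255438-34255467: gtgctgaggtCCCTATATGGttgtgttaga
Acta2, chr19:34255388-34255417: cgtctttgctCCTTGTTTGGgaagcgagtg
Acta1, chr8:123894829-123894858: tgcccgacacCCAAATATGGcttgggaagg
Actg1, chr11:120348566-120348595: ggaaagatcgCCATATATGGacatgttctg
The box of Actg1, whose level overlapped between the groups, and that of Acta1 are both exact. A match is a description of these letters and not a measured binding site. GENCODE places the start of Acta2 further upstream, so that 217 of the 250 bases searched lie in its first exon there. The window of Actc1 lies wholly inside the gene as GENCODE places it, with 12 bases in an exon. In Actg1 47 bases of the window lie in an exon, and in Acta1 0.

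The genes that build, hold and fold actin were read from 8 lists with 96 genes, of which 81 were tested. None was called in limma, against 0.16% of all genes, and 4 were lower and 4 higher at an unadjusted p under 0.05, where 5.65% of all genes were lower and 5.93% higher. The groups did not overlap for 8 lower genes and 5 higher ones (9.31% of all genes lay lower in this way and 7.92% higher). The fold changes had a median of 0.06, close to the 0.07 of all genes. For the genes named from these lists, TPM are given as mean ± SD (n = 3 each) and fold changes ± SE, with adjusted p-values from limma over all genes.

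Genes of monomer binding proteins, which keep a pool of free actin or cut filaments, had 7 of 11 negative fold changes and a median of -0.07. The list median was -0.04 after removal of the length and GC trend. Without controls 2 and 3 it was -0.07, close to the -0.08 of all genes in that setting. The cofilin relative Dstn was at 409.3, 429.1 and 423.6 TPM in the controls. Its CXCL3 values were 338.4, 339.0 and 345.7 TPM. Its groups did not overlap and its fold change was -0.30 ± 0.06 (limma, adjusted p = 0.139). The muscle cofilin gene Cfl2 went from 143.6 ± 12.8 to 109.7 ± 1.33 TPM without overlap (-0.38 ± 0.08, adjusted p = 0.159). Profilin Pfn1 and cofilin Cfl1, the common forms, stood at 1162 to 1399 and 1011 to 1118 TPM in all 6 libraries, with overlap. Tmsb4x, the highest of the list, was at 5049, 7092 and 5780 TPM in controls. Its CXCL3 values were 4513, 4535 and 4581 TPM, without overlap (-0.38 ± 0.12; limma, adjusted p = 0.328). Pfn1, Cfl1 and Tmsb4x were picked for mention with their values in view, as were Myocd and Actbl2 below.

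The Arp2/3 complex, which starts branched filaments, had 6 of 9 negative fold changes and a median of -0.06. The list median was -0.02 after removal of the length and GC trend and -0.03 without controls 2 and 3. The smallest p values of this list belonged to Arpc4 (172.8 ± 21.3 and 147.0 ± 8.89 TPM) and Arpc5l (68.3 ± 5.21 and 61.3 ± 3.84 TPM), both with overlapping groups. The formins, which lengthen straight filaments, had 11 of 11 positive fold changes and a median of 0.20. Diaph3 was at 4.4, 3.35 and 2.72 TPM in controls, and its CXCL3 values were 5.89, 6.34 and 5.64 TPM (0.65 ± 0.17; limma, adjusted p = 0.263). Diaph1 was at 20.6 ± 4.80 and 25.3 ± 1.03 TPM, with overlap. Formin transcripts are long (median 5508 bases, against 3213 for all genes), and the list median was 0.05 after removal of the length and GC trend and -0.05 without controls 2 and 3, where that of all genes was -0.08.

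Crosslinking genes had 9 of 10 positive fold changes and a median of 0.23, which was 0.15 after removal of the length and GC trend and -0.07 without controls 2 and 3. Eps8, whose product caps and bundles filaments, was at 5.26 ± 1.26 and 7.84 ± 0.12 TPM without overlap (0.52 ± 0.16; limma, adjusted p = 0.337). The alpha-actinin gene Actn4 was at 141.5 ± 29.6 and 182.2 ± 8.03 TPM, with overlap. Capping and severing genes had 6 of 9 positive fold changes and a median of 0.07, which was -0.005 after removal of the length and GC trend and -0.08 without controls 2 and 3. Capza1 was at 92.2 ± 17.4 and 105.6 ± 3.53 TPM, and the tropomodulin gene Tmod3 at 39.5 ± 7.69 and 44.4 ± 0.72 TPM, both with overlap.

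Genes of actin folding, mostly of the chaperonin CCT and prefoldin, had 13 of 17 negative fold changes and a median of -0.05. The list median was -0.06 after removal of the length and GC trend. Without controls 2 and 3 it was 0.0009, where that of all genes was -0.08. Cct6a was at 212.3 ± 20.8 and 238.3 ± 8.32 TPM with overlap, and Pdcl3 at 101.2 ± 2.96 and 92.6 ± 1.29 TPM without. SRF and its partners had 5 of 6 positive fold changes and a median of 0.21, which was 0.09 after removal of the length and GC trend and -0.09 without controls 2 and 3. Elk3, an SRF partner, was at 67.7, 52.2 and 57.3 TPM in controls against CXCL3 values of 74.4, 73.0 and 69.2 TPM, without overlap (0.29 ± 0.10; limma, adjusted p = 0.375). Mrtfb was at 5.83 ± 2.45 and 8.27 ± 0.90 TPM, with overlap. Myocd, the coactivator of smooth muscle, was at 0 in 5 libraries and at 0.03 TPM in control 1.

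Among actin-related genes, whose products share the actin fold, 7 of 8 fold changes were positive and the median was 0.08, close to the 0.07 of all genes. The list median was 0.06 after removal of the length and GC trend. Without controls 2 and 3 it was -0.08, as was that of all genes. The dynactin subunit gene Actr10 was at 118.0 ± 8.05 and 97.9 ± 4.15 TPM (-0.27 ± 0.08; limma, adjusted p = 0.298) and Actr5, of a chromatin remodeler, at 3.51 ± 0.22 and 4.45 ± 0.34 TPM (0.27 ± 0.13, adjusted p = 0.457), both without overlap. Actbl2, a retrogene close to beta actin, was listed at 0 in every library.

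**Figure D5:**
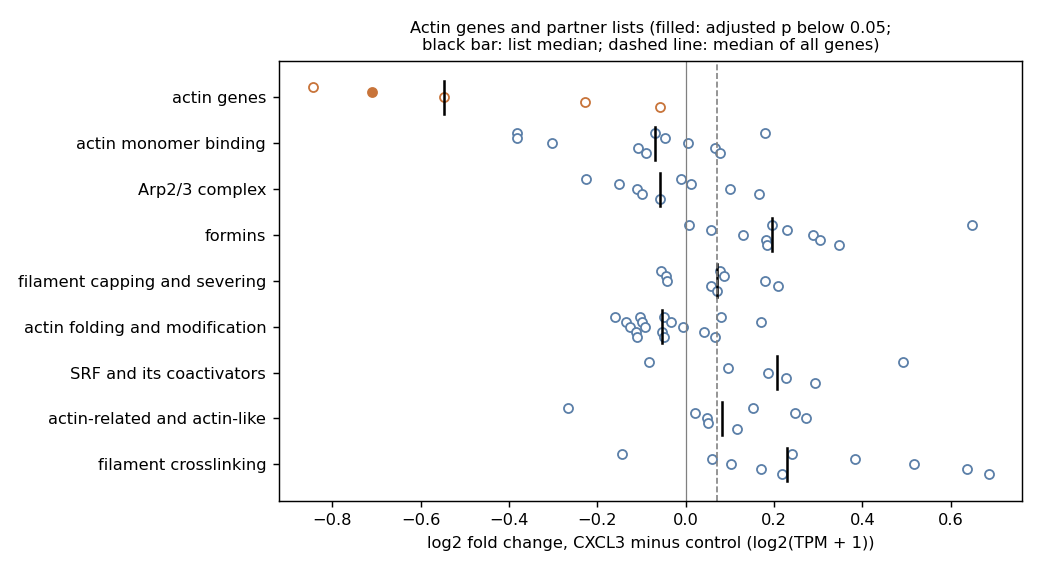
Log2 fold change (x axis, CXCL3 minus control, on log2(TPM + 1)) of the 5 actin genes tested and of the genes in 8 partner lists (rows); each point is a gene, black bars are medians, the dashed line is the median of all genes (0.07) and the filled point has an adjusted p below 0.05. Acta2 is the 1 filled point, and none of the 81 partner genes passed.

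The genes whose pattern was most like that of Acta2 were sought among 2580 protein-coding genes with a mean of at least 50 TPM. The actin genes were left out of this search and are given apart. Likeness was the root-mean-square difference between centered log2(TPM + 1) values over the 6 libraries. The nearest was the haptoglobin gene Hp (0.064), a plasma protein gene with 310.7, 334.7 and 319.8 TPM in the controls against 192.0, 195.4 and 196.2 TPM in the CXCL3 libraries. Also among the 5 nearest were Tagln (0.084), of the actin binding protein transgelin, Sprr2e (0.096), of a small proline-rich protein, and Ms4a7 (0.103), a membrane protein gene of macrophages. The other actins were farther off, with Acta1 at 0.122, Actg2 at 0.144, Actb at 0.285 and Actg1 at 0.331. For Actb the nearest genes were D8Ertd738e (0.026), Nt5c (0.033), Mrpl34 (0.034), Bud31 (0.034) and Cox5a (0.040). All 5 were highest in control 2, as Actb was, which follows from how they were picked.

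On the mouse build GRCm38 Acta2 (ENSMUSG00000035783) lies on the minus strand of chromosome 19 from 34241090 to 34255590, Actb (ENSMUSG00000029580) on chromosome 5 from 142903115 to 142906754, and Actg1 (ENSMUSG00000062825) on chromosome 11 from 120345690 to 120348542. Actg2 (ENSMUSG00000059430) lies on chromosome 6 from 83512905 to 83536265, Acta1 (ENSMUSG00000031972) on chromosome 8 from 123891769 to 123894751, and Actc1 (ENSMUSG00000068614) on chromosome 2 from 114047282 to 114053548. Acta1 lies opposite the predicted gene Gm20388 (29.2 to 47.3 TPM), with 0 exon bases in common. Its mean was 38.8 ± 7.39 TPM in controls against 34.1 ± 7.0 TPM with CXCL3 (SD, n = 3 each; limma, adjusted p = 0.614).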

How the data were processed

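The authors deposited 1 table of TPM (transcript levels relative to the library, corrected for length) for 51912 genes, with 1 column per library and 0 columns of other samples. Per the submitters' processing notes fastp, HISAT, RSEM and the build GRCm38.p5 were used, without versions or roles. The sources used here do not state strand, read length or annotation release. TPM keeps no depth, so no counting interval is given and precision rests on the 3 libraries per group.

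GENCODE M21 gave symbols for 51719 genes. The test was limma 3.58.1 (R 4.3.3) on log2(TPM + 1) (eBayes with trend, two-sided, Benjamini-Hochberg over 13139 genes with at least 1 TPM in at least 3 libraries, threshold 0.05). The fit was tested on simulated data in which each gene had the same spread in both groups and libraries varied independently. That simulation does not cover the unequal spread and the length trend of these libraries. Shares and sums were tested by exact permutation. Coding sequences were aligned with Biopython 1.88.

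The members and gene lists were chosen with earlier results of these data known. Partner genes named are those called, or else the 2 with the smallest p per list. Pfn1, Cfl1, Tmsb4x, Myocd and Actbl2 were named besides and were picked with their values in view. Of the 5 genes most like Acta2, 1 is not reported here. Alternatives were other pseudocounts, filters, scalings, variance models, library weights, a replicate block and leaving out libraries. The fit without controls 2 and 3 and the list medians under 2 settings were added after seeing the data.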

Additional observations from a re-analysis of the deposited data

How the results depend on the processing

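Acta2 had a negative fold change in all 19 other settings and kept its call in 12, of which 1 is the fit on control 1 alone, whose p-values are too small. It lost the call with no filter (-0.71), under eBayes without trend (-0.71) and under median-of-ratios scaling (-0.79), and leaving out 1 library gave -0.74 to -0.66 (limma, adjusted p = 0.00387 to 0.227). The count of called genes, 21 (4 higher, 17 lower) with all libraries, was 0 with no filter (1928 at an unadjusted p under 0.05), 1 under eBayes without trend, 4 (0 higher) under median-of-ratios scaling, 36 (13 higher) after removal of the length and GC trend, 1446 (1046 higher) with library weights (whose estimation stopped before its tolerance) and 84 without controls 2 and 3. Leaving out 1 library gave 0 to 4254, with 0 without control 3 and without CXCL3 libraries 1 and 2 (875, 765 and 799 at an unadjusted p under 0.05). With the replicate block it was 12, of which 9 were among the 21, and Acta2 kept its call (adjusted p = 0.0470). Whether same-numbered libraries are paired is not known. Deviations of same-numbered libraries correlated at 0.12, -0.01 and 0.08, and not every library correlated best with its own number. With 3 libraries per group these correlations cannot decide it. The summed actin difference was -658.9 TPM without controls 2 and 3 and -1181 TPM with median-of-ratios scaling. The muscle share difference lay between -6.24 and -5.07 points when 1 library was left out. Where a cause is not named it was not tested. With 3 libraries per group and no depth, the counting error of Acta1 (2.78 to 7.05 TPM) and Actg2 (11.2 to 19.2 TPM) is unknown.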
